A study of Mus musculus with 55 samples.

Results

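The 5 mice described here carried the labels of 2 Collaborative Cross (CC) lines, IL-1052 (mice 4302 and 4303) and IL-2750 (mice 4429, 4430 and 4431), and were grouped by the similarity of their liver expression profiles instead of by their labels. The grouping put mice 4302, 4429 and 4431 in a first set and mice 4303 and 4430 in a second set, so that each set held mice of both labels. These 5 mice were drawn from 55 mice of 29 lines in the study, which measured polyA RNA of untreated livers by RNA sequencing. The mice labelled IL-1052 were 9.3 weeks old and weighed 23.6 g (mouse 4302) and 22.3 g (mouse 4303). The mice labelled IL-2750 were 8.1 weeks old and weighed 26.9 g (mouse 4429), 30.1 g (mouse 4430) and 26.8 g (mouse 4431). All 5 mice were kept in 1 animal facility with free chow and water, no mouse was treated, and the labels give no engineered allele. The study's methods describe the mice as male, while the labels give no sex. The sets are not groups of the study, and because expression chose them, every difference in expression between them is given as a description with no test. Whether the labels of 2 mice were exchanged could not be settled from these data, and every value given by label takes the labels as they stand. The study compared array genotypes with genotypes read from the RNA and reported few mismatches within a strain. It also reported similar profiles between mice of a strain. Its text gives neither comparison for these 5 mice by themselves.

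CC lines are recombinant inbred lines, each bred toward a fixed mosaic of the genomes of several inbred founder strains. Mice of one line are therefore close to genetically identical, and line mates are expected to share the alleles that set the level of a gene in the liver. The study's mice were at differing inbreeding generations. Many liver genes of large tandem families, such as the major urinary proteins, the cytochromes P450 and the class I histocompatibility genes, differ between founder strains in sequence and in copy number. Enzymes and transporters of drug disposition take up, modify and export drugs in the liver, and the study asked how their expression varies between lines.

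The depth of a mouse was the sum of the fragments that the authors' quantification estimated for its genes, which ranged from 26499740 to 32135699 fragments in the 5 mice and from 20542671 to 33953036 in the 55 mice. Expression is given as FPKM, the fragments of a gene scaled to its effective length in kilobases and to the size of the library. Of the genes in the files, 11284 reached an FPKM of at least 2 in 1 or more of the 55 mice. The hepatocyte genes Alb, Apoa1 and Ttr were abundant in all 5 mice, with the lowest FPKM at 16789, 5742 and 3544. The Y-linked genes Ddx3y, Eif2s3y, Kdm5d and Uty were measured in all 5 mice, and Xist, the transcript of the inactive X chromosome, was at most 0.06 FPKM. The liver label thus held in each library, and each library held the Y-linked transcripts of a male.

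Similarity between mice was measured by the Spearman correlation over 5949 genes with variable expression. Mice 4302 and 4429, whose labels differ, had a correlation of 0.972. The correlation of mouse 4431 was 0.968 with mouse 4302 and 0.968 with mouse 4429. Mice 4303 and 4430, again of different labels, had a correlation of 0.955. All 6 pairs across the sets lay lower, between 0.901 and 0.924. The line mates 4302 and 4303 had a correlation of 0.913, and the line mates 4430 and 4431 had the highest value of a pair across the sets, at 0.924. The last pair inside the grouping was thus mice 4303 and 4430 and the first pair outside it was mice 4430 and 4431.

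The other lines show what values line mates take. The 27 pairs of line mates in the 19 other lines with 2 or 3 mice ranged from 0.950 to 0.990, with a median of 0.974. The 1198 pairs of mice of different lines among the 50 other mice ranged from 0.791 to 0.960, with a median of 0.893. All 4 pairs inside the sets therefore lay within the range of line mates elsewhere, and the pair of mice 4303 and 4430 lay near its lower end, at a value that some pairs of different lines also reached. The 3 pairs that share a label across the sets, at 0.906, 0.913 and 0.924, lay below every pair of line mates in the other lines. No mouse of the other 27 lines came as close to any of the 5 mice as their set mates did, since the highest such correlation was 0.928, between mouse 4303 and a mouse of line IL-670.

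**Figure D1:**
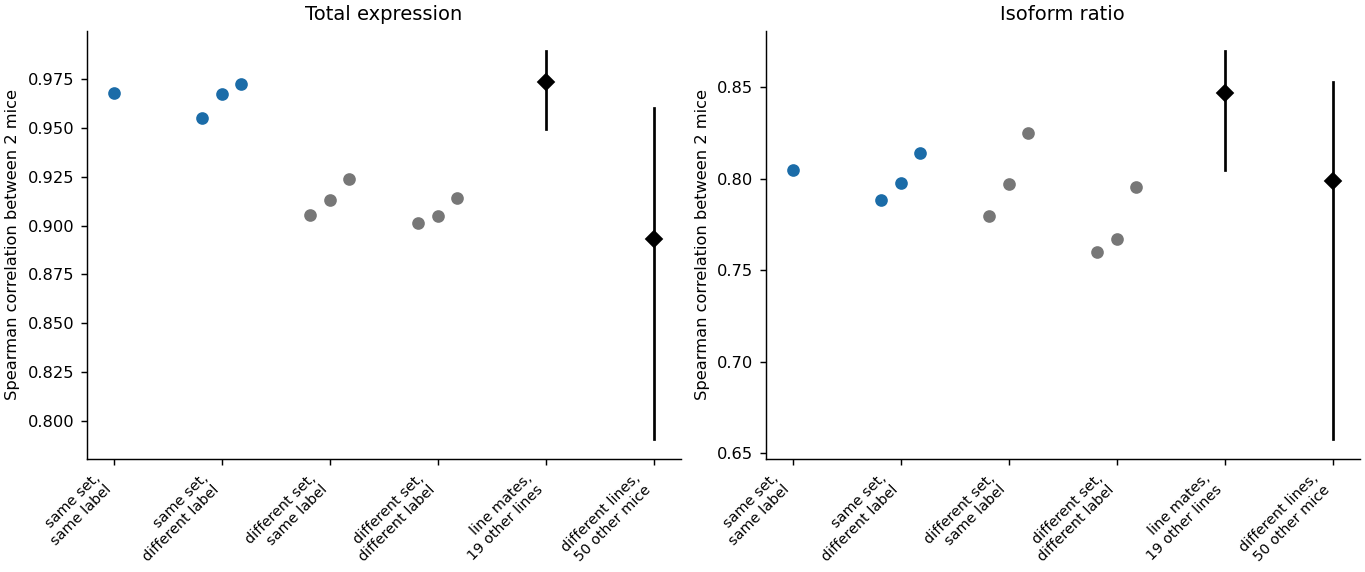
Spearman correlations between pairs of mice for total expression (left) and isoform ratios (right). Each point is 1 pair of the 5 mice, and the diamonds and lines give the median, lowest and highest pair of the other mice. For total expression the pairs of the same set lie at 0.955 or higher and those of different sets at 0.924 or lower, and for isoform ratios the 2 kinds of pair overlap.

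Isoform ratios, the percent of a gene's expression that an isoform takes, did not order the mice in the same way. Over 6650 isoform ratios the 4 pairs inside the sets had correlations of 0.788 to 0.814 and the 6 pairs across them 0.760 to 0.825. The highest of the 10 pairs was that of the line mates 4302 and 4303, at 0.825, which crosses the sets. Line mates of the other lines ranged from 0.805 to 0.870, and mice of different lines from 0.658 to 0.853. Mouse 4431 was the only one of the 5 whose closest mouse by isoform ratio was a mate of its set, mouse 4429. The other 4 mice were closest to mice of other lines.

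Similarity was also computed chromosome by chromosome. On 17 of 20 chromosomes every pair inside the sets had a higher correlation of total expression than every pair across them. The gap was widest on chromosome 13, where pairs inside the sets had at least 0.967 and pairs across them at most 0.867, and it was wide on chromosome X, at 0.941 against 0.878. The ranges overlapped on chromosomes 11, 12 and 18. Over all chromosomes together, the mean correlation inside the sets exceeded that across them by 0.055, and by 0.017 with overlapping pairs once the genes separated between the sets at least 2-fold were left out. On chromosome 12 the most similar pair across the sets reached 0.979, above the least similar pair inside them at 0.969.

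**Figure D2:**
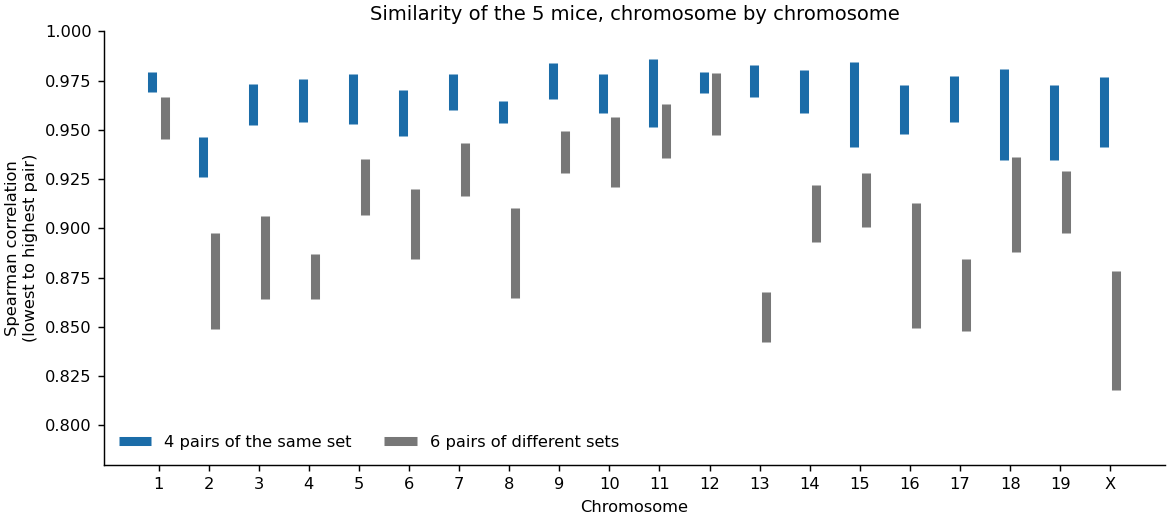
Spearman correlation of total expression between the 5 mice for each chromosome. Blue bars run from the lowest to the highest of the 4 pairs of the same set and grey bars over the 6 pairs of different sets, and the bars of 17 of 20 chromosomes do not overlap.

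A gene was called separated when its lowest value in one set was at least 2-fold above its highest value in the other, with 0.5 added to both. Higher in the first set were 143 genes (1.27% of those compared), and higher in the second set were 184 genes (1.63%), which together were 2.9% of the genes compared. In 80 of the 327 separated genes the values were at least 10-fold apart, and in 75 genes every mouse of the lower set was listed at 0. The median gene had an FPKM lower by 0.15 on the log2 scale in the first set than in the second, an offset that disappeared when the counts were scaled by TMM size factors to CPM, counts relative to library size with no correction for length (median 0.01). On that scale the split was even, with 176 genes higher in each set, while in TPM 145 genes were higher in the first set and 208 in the second, so the excess in the second set was found in FPKM and TPM and not in CPM. Without mouse 4430, 534 genes were separated.

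Protein-coding genes made up 230 of the separated genes, 2.2% of those compared, and pseudogenes made up 76, which was 18.2% of the pseudogenes compared. The separated genes lay in 198 of 527 windows of 5 Mb, and 127 of them lay in the 29 windows that held at least 3. The window with most separated genes was on chromosome 4 from 60000001 to 65000000 (NCBI build 37), with 12 of 53 genes, 11 of them genes or pseudogenes of the major urinary proteins. A window on chromosome 17 from 35000001 to 40000000 held 11 of 75, among them the class I genes H2-Q2 (1 of 2 genes of that name), H2-Q8, H2-T22, H2-Bl and H2-T10. A window on chromosome 6 from 120000001 to 125000000 held 8 of 52, among them Mug2, a murinoglobulin, Clec4a2, a myeloid lectin, and C1rb, a copy of the complement protease C1r.

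The major urinary proteins are small carriers of pheromones that the mouse liver secretes in bulk. Of 21 Mup genes, 7 were higher in the first set and 3 were higher in the second, against 2.9% of all genes separated. Mup13 (chromosome 4, 60885339 to 60889318) had an FPKM of 18064 in mouse 4302, 14988 in mouse 4429 and 16764 in mouse 4431, against 6.23 in mouse 4303 and 3.34 in mouse 4430. As listed for this single copy, it was at least 2227-fold apart between the sets. None of the 50 other mice reached the level of the first set, since the highest of them had 7248. The coding sequence of Mup13 is 99.3% identical to that of Mup19, its closest copy. Mup13 and Mup19 summed to 95203, 38000 and 71432 in the first set against 7681 and 1904 in the second, which was still separated. Mup12 had 27480, 30095 and 31126 in mice 4302, 4429 and 4431, against 126 and 127 in mice 4303 and 4430. Mup18 had 43339, 17976 and 31165 against 82.8 and 95.6. These 3 genes were named for having the widest gaps, so the lack of overlap between the sets follows from the choice. Many Mup genes are nearly identical in sequence, so the split of fragments between single copies is uncertain, and so are their fold differences.

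The reverse held for 3 genes. Mup1 (chromosome 4, 60510884 to 60514832) had an FPKM of 277 in mouse 4302, 221 in mouse 4429 and 250 in mouse 4431 against 60735 in mouse 4303 and 73600 in mouse 4430. Mup10 had 119, 102 and 150 against 16145 and 31534, and Mup2 had 744, 189 and 59.8 against 13887 and 15667. Mup15, Mup17, Mup19 and Mup20 were higher in the first set, and Mup20, which encodes the pheromone darcin, had 5194, 5400 and 5243 against 729 and 659. Mup7 and Mup9 were abundant in all 5 mice and did not separate them, with Mup7 between 24302 and 35575. The summed Mup share of a mouse's fragments followed neither the sets nor the labels, at 28.2% in mouse 4302, 16.2% in mouse 4429, 24.7% in mouse 4431, 15.2% in mouse 4303 and 22.7% in mouse 4430. The mice with the 3 highest shares were above all 50 other mice, whose shares ran from 2.5% to 22.5%.

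**Figure D3:**
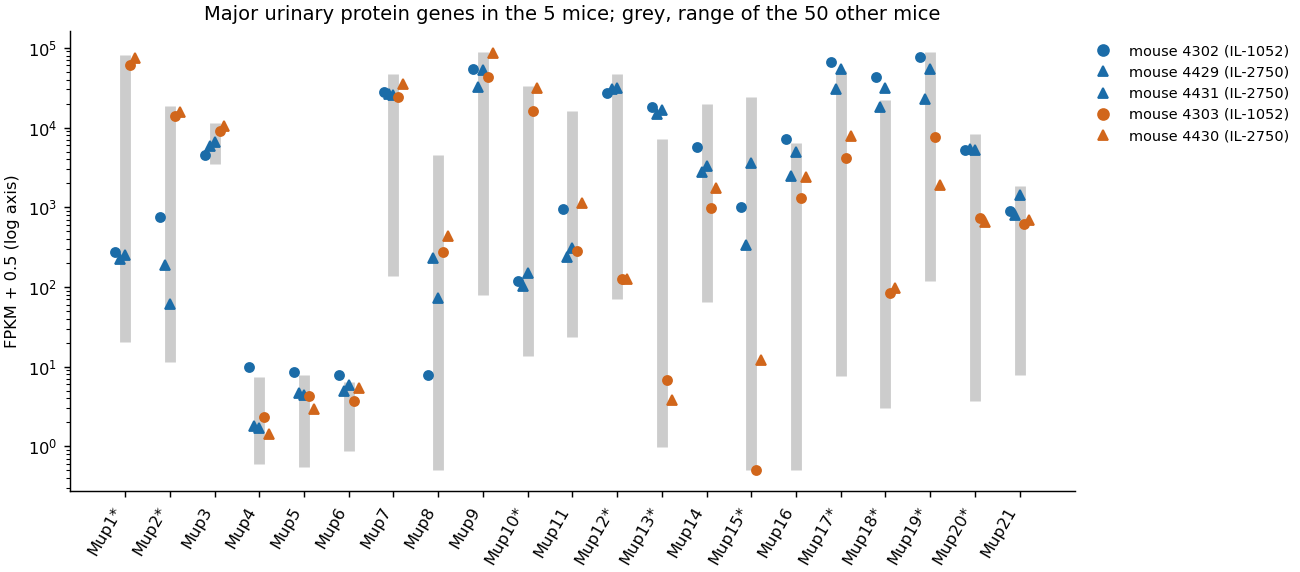
FPKM of the 21 Mup genes with 0.5 added, on a log axis, one point a mouse in the order 4302, 4429, 4431, 4303 and 4430 from left to right, blue for the first set and orange for the second, circles for the label IL-1052 and triangles for IL-2750. Grey bars give the range of the 50 other mice, and stars mark separated genes. Blue and orange points lie far apart for Mup1, Mup10, Mup12, Mup13 and Mup18. All blue points of Mup13 and some of Mup18 lie above their bars.

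Cytochrome P450 genes encode the oxidases of drug and steroid metabolism. The list held 65 with a name that ends in a number and that passed the filter on low values. Of these, 4 were higher in the first set and 9 in the second, against 2.9% of all genes separated. The median over them was -0.21 on the log2 scale (first minus second) against -0.15 over all genes. Cyp3a16 was listed at 0 in mice 4302, 4429 and 4431 and had an FPKM of 7.93 in mouse 4303 and 12.6 in mouse 4430. Cyp3a44 showed the same direction, with 0.02, 0.02 and 0.12 against 6.24 and 5.34. So did Cyp3a41a, which the pattern of names left out of the 65, with 0.07, 0.15 and 0.75 against 7.41 and 8.83. Cyp3a59, of the same cluster on chromosome 5, ran the other way, with 8.64, 9.69 and 8.00 in the first set and 0.17 and 0.27 in the second. These 4 Cyp3a genes, named because they were separated, thus differed in both directions.

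On chromosome 7 the 5 separated P450 genes, of the Cyp2a, Cyp2b and Cyp2g groups, were all higher in the second set. Cyp2a5, the coumarin hydroxylase, had an FPKM of 24.4 in mouse 4302, 43.4 in mouse 4429 and 39.3 in mouse 4431 against 270 in mouse 4303 and 319 in mouse 4430. Cyp2a22 had 0.86, 1.27 and 1.14 against 21.5 and 14.5, and Cyp2a12 had 81.7, 140 and 102 against 335 and 355. Cyp2b9 and Cyp2g1 were also higher in the second set, at 3.54 FPKM or lower in all 5 mice. Cyp46a1, the cholesterol 24-hydroxylase, had 0.15, 0.18 and 0.16 in the first set and 8.53 and 7.34 in the second. The reverse held for both separated genes of the Cyp2c group, Cyp2c38 and Cyp2c69. Cyp2c38 had 3.22, 10.4 and 7.54 in the first set against 0.26 and 0.49 in the second. In mouse 4303 it was below all 50 other mice, the lowest of which had 0.41. Cyp2c69 had 18.97, 169.61 and 144.46 in the first set against 7.95 and 0.96 in the second, with the highest other mouse at 31.55.

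Of 15 carboxylesterases and 10 sulfotransferases that passed the filter, 1 of each was separated, against 2.9% of all genes. Ces2h, a carboxylesterase (chromosome 8, 107538350 to 107544310), had an FPKM of 0.12 in mouse 4302, 0.12 in mouse 4429 and 0.02 in mouse 4431 against 55.1 in mouse 4303 and 35.8 in mouse 4430. Of the 50 other mice, 8 reached the level of the second set and 16 were at or below that of the first, so both levels were found elsewhere in the panel. Nat8, an N-acetyltransferase, had 6.16, 14.2 and 6.76 in the first set against 0.36 and 1.34 in the second. Sult1c2, a sulfotransferase, was at 1.86 to 2.71 in the first set and at 6.87 and 8.17 in the second, above all 50 other mice.

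Glutathione transferases of the mu class, which join glutathione to electrophiles, lie in tandem on chromosome 3. Gstm3 had an FPKM of 1.21 in mouse 4302, 1.08 in mouse 4429 and 0.69 in mouse 4431 against 64.7 in mouse 4303 and 35.7 in mouse 4430. Gstm2 had 6.26, 7.39 and 4.54 against 49.6 and 34.2, and Gstm6 had 11.6, 14.2 and 8.86 against 91.3 and 43.9. Gstm5 followed with 1.65 to 3.67 against 11.4 and 8.81. Gstm7 was reversed, with 181, 216 and 135 in the first set and 48.0 and 31.6 in the second. Of 22 glutathione transferases that passed the filter, only these 5 mu-class genes were separated, against 2.9% of all genes.

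Among the 40 drug disposition genes that the study tabulated, 5 were separated, with 2.9% of all genes as the background. Nat8 was higher in the first set, and Ces2h, Cyp3a16, Cyp2a22 and Gstm6 were higher in the second. The study chose that list on these samples, so it is not independent of them. None of the 17 UDP-glucuronosyltransferases and none of the 18 uptake transporters of the Slco and Slc22 families that passed the filter was separated, and lists of this size hold few separated genes or none at the background share. Of 23 ABC transporters of subfamilies A, B, C and G, Abca3, a lipid exporter, was higher in the first set and Abcb1b, a drug efflux pump, in the second, at 2.35 FPKM or lower.

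**Figure D4:**
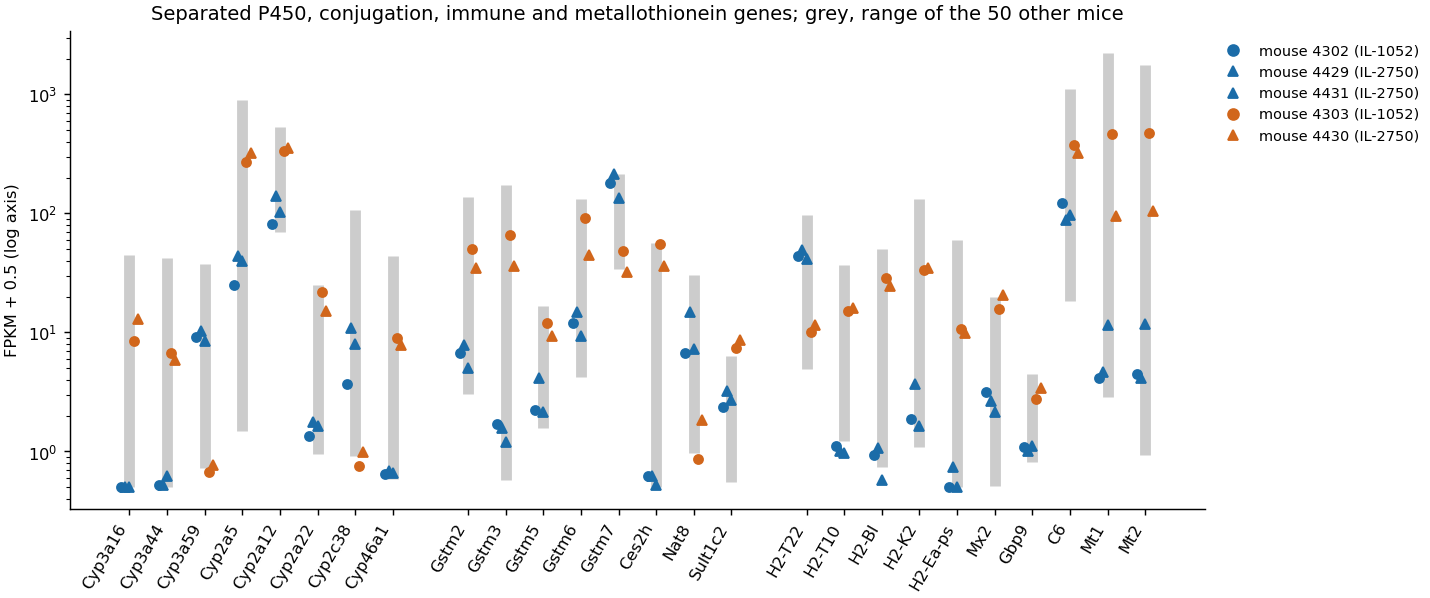
FPKM with 0.5 added, on a log axis, of separated P450 genes, conjugating and hydrolysing enzymes, and histocompatibility, immune and metallothionein genes, with colours, symbols and grey bars as in the plot of the Mup genes. For 21 of the 26 genes the mice of the second set lie above those of the first, and Cyp3a59, Cyp2c38, Gstm7, Nat8 and H2-T22 run the other way.

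Histocompatibility genes present peptides on the cell surface and are among the most variable genes between mouse strains. Of 26 H2 genes that passed the filter, 1 was higher in the first set and 6 in the second, against 2.9% of all genes separated. The median over the H2 genes was -0.83 on the log2 scale, against -0.15 over all genes. H2-T22 had an FPKM of 43.6, 48.5 and 40.8 in mice 4302, 4429 and 4431 and of 9.60 and 10.9 in mice 4303 and 4430. H2-Bl had 0.43, 0.57 and 0.08 against 28.4 and 23.9, and H2-T10 had 0.62, 0.51 and 0.48 against 14.5 and 15.5. H2-K2 had 1.39, 3.16 and 1.15 against 33.2 and 34.0, and the class II pseudogene H2-Ea-ps was at most 0.24 in the first set and at 10.1 and 9.37 in the second. No other mouse of the panel was at or below the first set for H2-T10. Genes of this family are alike in sequence, so the split of fragments between them is uncertain, and H2-T22 and H2-T10 summed were not separated.

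Of the interferon-stimulated and the complement and coagulation genes listed, 2 each were separated, against 2.9% of all genes. Mx2, an antiviral dynamin-like GTPase, had an FPKM of 2.63, 2.17 and 1.66 in the first set and 15.4 and 20.2 in the second, and Ifi27l2a had 2.18 to 3.45 against 18.4 and 9.41. They were 2 of the 21 genes on a list of interferon-stimulated genes, which did not hold every such gene. Off the list, Gbp4, Gbp8, Gbp9 and Gbp11, interferon-induced GTPases, were also higher in the second set. C6, a component of the membrane attack complex, had 122, 87.6 and 96.8 against 377 and 322. C1rb was the only other one of 39 complement and coagulation genes, listed at 0 in both mice of the second set and at 2.04 to 3.75 in the first. The acute phase protein Orm1 was at 175 to 272 against 600 and 663, and it fell short of 2-fold in CPM.

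The metallothioneins Mt1 and Mt2 bind zinc and copper and are induced by metals, glucocorticoids and stress. Mt1 had an FPKM of 3.65 in mouse 4302, 4.14 in mouse 4429 and 11.04 in mouse 4431 against 467 in mouse 4303 and 94.4 in mouse 4430. Mt2 had 3.99, 3.63 and 11.3 against 472 and 104. The 2 mice of the second set also differed from each other by a larger ratio than any 2 mice of the first did. Both levels occurred in other mice, whose Mt1 ran from 2.38 to 2225. The heat shock gene Hspa1b was at 7.41 to 9.01 against 20.4 and 30.1 and fell short of 2-fold in CPM. It was the only one of 20 heat shock and chaperone genes that was separated, against 2.9% of all genes.

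For gene groups that follow feeding, time of day or general liver function, the counts below stand against a background share of 2.9% of all genes, at which most lists of this size would hold few separated genes or none. No member was separated among 15 circadian clock genes, 22 cholesterol synthesis genes, 16 lipogenesis genes, 20 fatty acid oxidation genes, 14 bile acid genes, 13 urea cycle and periportal genes, 15 pericentral genes, 16 growth hormone axis genes, 17 immediate early genes, 23 genes of the mitochondrial genome and 86 respiratory chain genes. Their medians (first set minus second) ranged from -0.54 for lipogenesis to 0.27 for the bile acid genes on the log2 scale, against -0.15 over all genes. Separated calls need a 2-fold gap between every mouse of the sets, so smaller shifts of these groups are not covered by the counts.

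Marker sums of some cell types other than hepatocytes did not overlap between the sets. In FPKM, 2847 of the 11284 single genes compared did not overlap and were higher in the second set, and 689 were higher in the first. In CPM these counts were 1629 and 1926, and the marker sums are given in FPKM only. The summed FPKM of 5 stellate cell markers was 28.2 to 36.5 in the first set and 80.3 and 91.5 in the second, within the range of 16.0 to 135 in the 50 other mice. Of the 5 markers only Dcn, a matrix proteoglycan, was separated, at 15.8 to 24.9 against 65.2 and 58.9, and it fell short of 2-fold in CPM. The 5 Kupffer cell markers summed to 31.4 to 44.3 against 55.0 and 77.6, and the 5 endothelial markers to 14.9 to 23.5 against 27.1 and 50.8. None of those was separated. The 5 red cell markers summed to 929, 1151 and 739 in the first set and to 2247 and 1054 in the second, which overlapped. Only Alas2, a heme synthesis enzyme, was separated, at 86.5 to 93.4 in the first set and 42.1 and 41.9 in the second, and it fell short of 2-fold in TPM. No marker of these 3 lists was at 0 in any of the 5 mice. The part of these cells in the differences between the sets was not tested, and in bulk tissue more cells of a type and more RNA per cell cannot be told apart.

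Mouse 4303 stood apart for adipocyte markers. Adipoq, the adipocyte hormone adiponectin, had an FPKM of 8.82 in mouse 4303 and was listed at 0 in the other 4 mice and at no more than 1.57 in the 50 other mice. Plin1, which coats lipid droplets of adipocytes, had 4.57 in mouse 4303 and 0 in the other 4. The 4 adipocyte markers summed to 14.25 in mouse 4303, to 0 in the other 4 mice and to at most 3.23 elsewhere. Their part in any result was not tested. Without mouse 4303, 460 genes were separated, a count that cannot fall when a mouse is left out.

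Part of the separated genes had near-identical copies elsewhere in the genome. Of the 230 separated protein-coding genes, 90 had another gene whose coding sequence was at least 90% identical over the shorter of the pair. When the FPKM of the gene and its closest copy were added, 35 of the 90 sums were still separated and 55 were not. Fragments that match both copies are shared out by the quantification, so the values of single copies are less certain than their sum.

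Ribosomal protein genes show this most plainly. Rps3a had an FPKM of 275, 405 and 271 in mice 4302, 4429 and 4431 against 35.2 and 23.2 in mice 4303 and 4430, while Gm10119, which is 99.5% identical, was listed at 0 in the first set and had 141 and 173 in the second. Their sum was 275, 405 and 271 against 176 and 196 and was not separated. Rps18 had 418, 515 and 299 against 27.4 and 2.82, and Gm10260, 99.1% identical, had 0, 0.81 and 0 against 312 and 203. Rpl7a and its copy Gm8226, 99.8% identical, were mirrored too, with 28.8, 29.2 and 23.4 against 313 and 255 for Rpl7a and 81.4, 100 and 65.1 against 0.07 and 0.26 for Gm8226. Their sum was 110, 130 and 88.5 against 313 and 255, which did not overlap and was just under 2-fold apart. Rpl21 had 1.42, 1.49 and 1.22 against 71.3 and 67.8. Of 77 cytosolic ribosomal protein genes, 4 were higher in the first set and 3 in the second, against 2.9% of all genes separated.

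Most other genes with the widest gaps carried predicted names only. Higher in the first set were Gm10020, Gm5619, Gm16477, Gm5908, Gm10320 and Gm5453, all listed at 0 in mice 4303 and 4430, and Gm9396. Higher in the second set were Rpl36-ps3, Gm3511 and Gm6984, listed at 0 in mice 4302, 4429 and 4431, and Gm10874, Gm10068 and Gm9000. Of 52 separated protein-coding genes with a predicted, clone or pseudogene name, 39 had a copy at least 90% identical, against 51 of the 178 with other names.

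Mup1 and Mup12 form such a pair as well, with coding sequences 99.7% identical. Their sum was 27757 in mouse 4302, 30316 in mouse 4429, 31376 in mouse 4431, 60861 in mouse 4303 and 73726 in mouse 4430, and it was less than 2-fold apart between the nearest mice of the sets. The sums of Mup10, Mup13, Mup18 and Mup20 with their closest copies were still separated. Those of Mup2, Mup15, Mup17 and Mup19 were not. In other families the sum with the closest copy stayed apart for some genes. Cyp2a5 and Cyp2a4 summed to 24.4 to 43.5 in the first set and to 270 and 324 in the second. Hsd3b5, a steroid dehydrogenase, and Hsd3b4 summed to 198 to 270 in the first set against 62.8 and 75.8. Selenbp2, a selenium-binding protein, and Selenbp1 summed to 1542 to 1869 against 619 and 339. Hsd3b5 and Selenbp2 were chosen for naming after their values were seen.

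**Figure D5:**
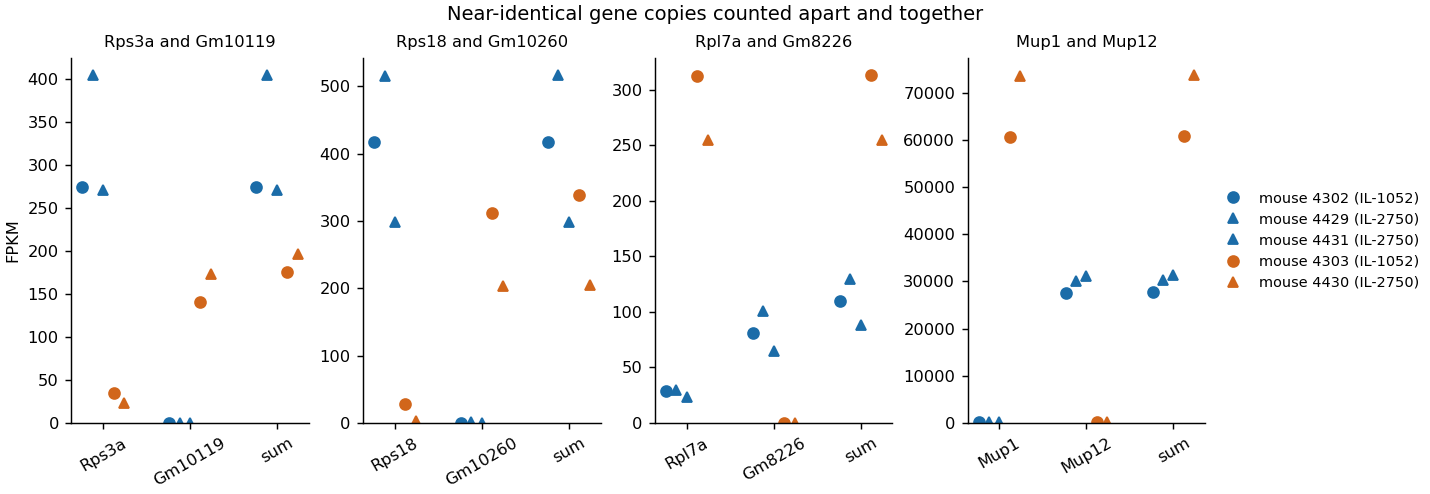
FPKM of 4 genes, of their closest near-identical copy and of the sum of both, on linear axes from 0, with colours and symbols as in the plot of the Mup genes. The single genes and copies separate the sets in opposite directions, and none of the 4 sums is separated 2-fold.

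Isoform ratios were compared in 38120 isoforms of 6401 genes with at least 100 estimated fragments in each of the 5 mice. In 97 isoforms of 62 genes (0.254% of the isoforms) the lowest ratio of one set was at least 20 percentage points above the highest of the other. Only 5 of the 62 genes were also separated in total expression. Without mouse 4303 there were 433 such isoforms and without mouse 4430 there were 295, counts that cannot fall when a mouse is left out.

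Spp1, which encodes osteopontin, had the widest gap. One protein-coding isoform took 94.8%, 98.0% and 96.4% of its expression in mice 4302, 4429 and 4431 and was listed at 0% in mice 4303 and 4430. An isoform of H2-K1, a class I histocompatibility gene, took 86.2%, 84.7% and 80.4% in the first set and 0% in both mice of the second. In the 50 other mice the ratio ran from 0% to 99.5% for the Spp1 isoform and from 0% to 87.8% for that of H2-K1, so values near both levels were found elsewhere.

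Further genes followed the same form. A retained-intron isoform of Pdxdc1, a pyridoxal-dependent decarboxylase, took 4.09%, 5.18% and 5.94% in the first set and 88.7% and 82.2% in the second, while the total expression of the gene was similar in all 5 mice, at 18.9 to 23.9 FPKM. Cyp4a10, a fatty acid hydroxylase, had an isoform at 21.8% to 29.3% in the first set and at 100% in both mice of the second, with as few as 178 estimated fragments of the gene in a mouse. The DNA replication gene Mcm10 had an intron-retaining isoform at 58.9% to 77.7% against 2.98% and 2.79%, and Zfp945, a zinc finger gene, had an isoform at 62.5% to 79.3% against 0%. Mup1, Mup10 and Mup12 were also among the 10 genes with the widest gaps, in each of which the isoform that dominates the set with high expression is minor in the set with low expression.

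Of 27 tabulated drug disposition genes compared, Cyp3a25 alone had a separated isoform. This gene encodes a steroid and drug hydroxylase of the Cyp3a cluster. Its main coding isoform took 76.0%, 76.0% and 74.0% in mice 4302, 4429 and 4431 and 98.6% and 98.3% in mice 4303 and 4430. An isoform annotated for nonsense-mediated decay took 23.6%, 23.6% and 25.6% against 1.30% and 1.56%. Total Cyp3a25 expression did not reach a 2-fold gap, with 188, 197 and 233 FPKM against 416 and 574.

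The other lines offer mice that the grouping did not use. The intraclass correlation is the share of a gene's variance in log2(FPKM + 0.5) that lies between lines, and it was computed in the 42 mice of the 19 other lines with 2 or 3 mice. Its median was 0.861 over the separated genes and 0.657 over all genes. It was above 0.8 in 65.0% of the separated genes and in 19.3% of all genes. Among protein-coding genes alone the median was 0.827 over the separated genes and 0.655 over all, with 59.4% and 17.8% above 0.8. In 300 of the 327 separated genes, at least 1 other mouse was at or beyond the level of each set. A single mouse is enough for this count. Cyp2c38 had 49 other mice at or above the level of the first set and 1 at or below that of the second. Only 15 genes were higher in their higher set than in any other mouse, Mup13 and Sult1c2 among them, and 12 were lower in their lower set than in any other mouse, H2-T10 and Camk1d, a calcium-dependent kinase, among them.

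High values were reached by several of the genes named above. Ces2h had an intraclass correlation of 0.994, H2-T22 of 0.967, Cyp2a12 of 0.965 and Gstm6 of 0.923. Mt1 was lower at 0.771, and Cyp2c38 at 0.263. For the separated isoforms the median was 0.772, against 0.115 over all isoforms compared. These are values across genes that share samples, and they are given with no test.

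The comparison that the labels imply, IL-2750 (n = 3) against IL-1052 (n = 2), was tested with the labels as given. The 5 mice were picked because similarity in these same counts crossed the labels, so the number of calls is not independent of that choice. edgeR's quasi-likelihood test on the estimated counts called 0 of 13056 genes (0.0%) at a Benjamini-Hochberg adjusted p under 0.05, with the smallest adjusted p at 0.725. At an unadjusted p under 0.05 there were 813 genes. The test called 0 genes also with the set as a term beside the label. The set was itself chosen from the expression of these 5 mice, so no conclusion about the label is drawn from that fit. DESeq2 called 62 genes, and edgeR fitted to 47 mice of 21 lines, which share 1 estimate of the spread, called 65 of 15285. The 2 lists had 7 genes in common. Since each label held mice of both sets, the spread inside a label entered this test with the differences described above.

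By label, 43 genes (0.381%) were separated 2-fold, 4 higher in IL-1052 and 39 higher in IL-2750. Of the 39, 33 were annotated as ribosomal or other small RNA genes, which are short and hard to tell apart. In CPM 10 genes were separated by label. Of single genes, Zhx2, a zinc finger and homeobox regulator of liver genes, stood out with 238 and 235 estimated fragments in mice 4302 and 4303 and 0, 0 and 0.28 in mice 4429, 4430 and 4431. Zhx2 was listed at 0 in 27 of the 50 other mice, with a median of 237 fragments in the 23 above 0, and in 13 of the 19 other lines line mates fell on both sides. In most of the other lines, Zhx2 was thus listed at 0 in some mice and above 0 in their line mates. Whether this split lies in expression or in how the quantification shared out fragments was not tested.

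The other genes with the widest gaps by label were of the same sparse kind. Pgam1-ps2, a pseudogene, had an FPKM of 3.31 and 9.32 in mice 4302 and 4303 and was listed at 0 in the 3 mice labelled IL-2750. Gm10146 was listed at 0 in both mice labelled IL-1052 and had 1.75, 4.19 and 3.49 in mice 4429, 4430 and 4431. Gm8116, Gm14117 and Snora20, a small nucleolar RNA, were also higher in IL-2750, at 3.99 FPKM or lower. For comparison, Usmg5, a subunit of the ATP synthase complex, had 160 and 180 FPKM against 347, 327 and 267, with a log2 fold change of 1.05 (SE 0.13), and did not pass the adjusted test of edgeR. Usmg5 was chosen for naming after its values were seen.

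Isoforms separated by label were not rarer than isoforms separated by set, with 124 isoforms of 81 genes (0.325%). An isoform of Rps6ka4, a stress-activated kinase, was listed at 0% in mice 4302 and 4303 and at 100% in the other 3. One of Senp2, a SUMO protease, took 26.0% and 20.97% in mice 4302 and 4303 and 69.1%, 70.8% and 73.3% in mice 4429, 4430 and 4431. In the 42 mice of other lines the median intraclass correlation of these 124 isoforms was 0.274, against 0.772 for the isoforms separated by set. For the Rps6ka4 isoform it was -0.17, so its 2 levels did not follow lines elsewhere. Single isoforms ran against these medians in both groups. The Cyp4a10 isoform separated by set had -0.07, and a Lonp1 isoform separated by label had 0.77. Rps6ka4 and Senp2 were named after their values were seen.

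Body weight was a measure that the grouping did not use. By label, the 3 mice of IL-2750 weighed 27.9 g ± 1.88 (SD, n = 3) and the 2 of IL-1052 weighed 22.95 g ± 0.919 (SD, n = 2), with no overlap. An exact permutation test gave a two-sided p of 0.2, the smallest that 3 against 2 mice can give. By set, the weights overlapped, at 25.8 g ± 1.88 (SD, n = 3) and 26.2 g ± 5.52 (SD, n = 2), with a two-sided p of 1.0 in the exact permutation test. Age was confounded with the label, and the p-values cover the spread between these animals only.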

How the data were processed

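The authors sequenced stranded polyA libraries of liver with paired-end reads of 50 bases, aligned them to the mouse genome (NCBI build 37, mm9) with Bowtie 2 and quantified genes and isoforms with RSEM 1.2.18. The deposited expected counts are estimated fragments, with fragments matching several places shared out. The deposited FPKM and TPM were scaled by the authors' software for effective length and library, and the authors' isoform values give each isoform's percent of its gene. Symbols and positions came from an annotation of the same build (37205 of 37620 genes matched).

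Separation used FPKM with 0.5 added, for genes with a maximum FPKM of at least 2. Genes and isoforms entered the correlations when they took 12 or more levels after binning (bin width 0.5 or 1 part in 200 of the maximum, whichever was larger). Counts rounded to whole numbers were tested with edgeR 4.0.16 (TMM, quasi-likelihood F test, Benjamini-Hochberg) and, as an alternative, DESeq2 1.42.0. Intraclass correlations used one-way analysis of variance. Copies were found by aligning the longest annotated coding sequences, the shorter within the longer. The label test, separation and intraclass correlation were checked on simulated data (R 4.3.3, Python 3.11.15, pandas 2.3.3, scipy 1.17.1).

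The mice, the gene lists and the measures were chosen with earlier results of these data known. Genes were named by a fixed rule: the 12 protein-coding genes a set with the widest gap, the 10 widest isoforms, up to 4 separated members of each list (some lists were name patterns, which missed Cyp3a41a), tabulated genes, the widest genes by label, sex-linked and liver genes, and the 3 windows with most separated genes. Further members of those families were named after their values were seen, and some genes chosen by the rule are not reported here. Labels give no sequencing batch and no pairing of replicates.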

Additional observations from a re-analysis of the deposited data

How the results depend on the processing

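Directions of all 55 separated genes chosen by the naming rule held under TPM, CPM and pseudocounts of 0.1 and 1, and 5 of them fell below 2-fold in 1 setting each: Orm1, Hspa1b and Dcn in CPM, Abcb1b with a pseudocount of 1 and Alas2 in TPM. The alternatives for single genes and for body weight were chosen after seeing the data. Separated genes by set numbered 619 at 1.5-fold and 159 at 4-fold, and 366 to 534 when 1 mouse was left out, which can only raise the count, since fewer mice must be kept apart. By label there were 10 in CPM, 65 with a pseudocount of 0.1, 65 at 1.5-fold, 4 at 4-fold and 51 to 159 without 1 mouse (159 without mouse 4302, 97 without mouse 4303 and 69 without mouse 4430). Isoforms separated by set numbered 36 with at least 500 fragments, 262 with no minimum, 308 at 10 and 27 at 40 percentage points, and 158 to 433 without 1 mouse. The mean correlation inside the sets minus that across them was 0.055, against 0.019 with all genes above 0, 0.014 for isoform ratios, 0.017 without the separated genes, 0.079 for the Pearson correlation of log2(FPKM + 0.5) and 0.050 to 0.059 without 1 mouse. In the isoform ratios and without the separated genes the pairs inside and across the sets overlapped. The median intraclass correlation of separated genes was 0.755 with van der Waerden scores (0.610 over all genes), 0.915 for genes separated 4-fold and 0.856 to 0.876 without 1 mouse. The label test gave 62 genes with DESeq2 and 65 with 47 mice, and 0 in each of the other 9 settings. The body weight difference by set (first minus second) was -0.43 g and ran from -4.33 to 3.47 g without 1 mouse, with 0.65 g without mouse 4302 and 3.47 g without mouse 4430, and that by label from 3.90 to 5.63 g. No paired analysis was possible because the replicate numbers were given in accession order and pair no mice. The causes of these shifts were not tested beyond what the settings state. Genes with few fragments, such as Cyp3a44 or Cyp2g1, are limited by depth.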

Other observations

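Further separated genes, chosen after their values were seen, lay outside the gene groups above. The guanylate-binding proteins Gbp4, Gbp8, Gbp9 and Gbp11, interferon-induced GTPases that lie together on chromosome 5, were all higher in mice 4303 and 4430. Gbp11 had an FPKM of 1.01, 0.96 and 1.37 in mice 4302, 4429 and 4431 and of 26.0 and 37.4 in mice 4303 and 4430. Gbp8 had 0.46, 0.39 and 0.85 against 7.87 and 10.99. The alarmin Il33 had 0.29, 0.48 and 0.43 against 8.76 and 5.16, and Nqo1, a quinone reductase, had 1.18, 1.95 and 1.03 against 9.14 and 9.75. Vcam1, an endothelial adhesion molecule, was at 0.39 to 0.48 against 2.13 and 1.72.

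Genes of lipid handling ran in both directions. Cd36, a fatty acid receptor, had an FPKM of 3.06, 2.07 and 2.56 in the first set and 13.5 and 7.34 in the second, and Apoa4, an apolipoprotein, had 93.3, 51.6 and 29.3 against 298 and 227. Vnn1, a pantetheinase, was higher in the first set, with 3.74, 10.2 and 6.54 against 0.48 and 0.50. Adipocytes also express Cd36, adipocyte markers were found in mouse 4303 and not in mouse 4430, and their part in the Cd36 values was not tested. Camk1d was at 0.10 to 0.13 in the first set, lower than in any of the 50 other mice, and at 10.9 and 5.43 in the second, with an intraclass correlation of 0.973 in the other lines.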
